A study of Homo sapiens with 8 samples.

Results

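The RNA of the MHC class I antigen presentation pathway was followed through 9 genes in prostate cancer cells with raised or lowered MYCL, a MYC family transcription factor. The 9 genes were chosen by name, as the rows of the gene table called HLA-B, HLA-C, HLA-E, B2M, TAP1, TAP2, TAPBP, PSMB8 and PSMB9. They are 9 of the 78691 genes in the table, and each name has 1 row. Levels are given as CPM, counts scaled to library size by TMM over all 8 libraries, for comparisons of a gene between libraries, and as TPM, which corrects for gene length, for comparisons between genes.

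MHC class I molecules show short peptides from inside the cell to CD8 T cells. The proteasome cuts the peptides, TAP1 and TAP2 carry them into the endoplasmic reticulum, and tapasin, the product of TAPBP, helps to load them onto a heavy chain bound to beta-2-microglobulin, the product of B2M. HLA-B and HLA-C are classical heavy chains, HLA-E is a non-classical one read mainly by natural killer cells, and PSMB8 and PSMB9 are catalytic subunits that replace constitutive ones in the immunoproteasome. Interferons raise most genes of the pathway in many tissues, through IRF factors and the coactivator NLRC5 among others, and low class I expression is common in prostate cancer and in neuroendocrine tumors.

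There were 4 groups of 2 libraries each. C4-2B, a castration-resistant prostate adenocarcinoma line, carried either an empty lentiviral vector (C4-2B control) or a lentiviral vector for human MYCL driven by the EF1A promoter, which also makes EGFP (C4-2B MYCL). NCI-H660, a neuroendocrine prostate cancer line, received a non-targeting shRNA (NCI-H660 shCtrl) or shRNA against MYCL (NCI-H660 shMYCL). The series describes the knockdown vector as adenoviral, while a treatment label speaks of stable knockdown, and which shRNA platform made these libraries is not stated. The control libraries of C4-2B are labelled biological replicates and the others replicates, and nothing says that they came from separate cultures, so p-values measure the spread between these libraries, which may be technical.

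Library totals ranged from 15177071 to 32344170 counts, and the 9 genes took between 6868 and 34188 of them. MYCL stood at 12.1 and 14.2 CPM in C4-2B control, 3733 and 4242 in C4-2B MYCL, 104.2 and 81.8 in NCI-H660 shCtrl and 10.3 and 12 in NCI-H660 shMYCL, as the labels say. A list of 9 luminal prostate markers summed to between 3992 and 4778 CPM in the C4-2B libraries and to between 1002 and 1136 CPM in NCI-H660. Of this list, KLK2, KLK3 and FOLH1 had 0 counts in NCI-H660. The keratin KRT8 was called higher in NCI-H660 shCtrl than in C4-2B control (log2 0.75), and KRT18 was not called (-0.13). A list of 9 neuroendocrine markers summed to between 1346 and 1809 CPM in NCI-H660 and to between 11.5 and 14.1 CPM in C4-2B. A list of 14 leukocyte markers, which would show admixed blood cells rich in class I RNA, summed to between 0.845 and 3.31 CPM, and the leukocyte gene PTPRC was at 0 in 7 of the 8 libraries.

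Of the 9 genes, 8 lie on chromosome 6 in GRCh38 (GENCODE 44) and B2M lies on chromosome 15 from 44711358 to 44718851. HLA-E (30489509 to 30494194), HLA-C (31268749 to 31272130) and HLA-B (31353872 to 31367067) are spread over the class I region. TAP2 (32821833 to 32838739), PSMB8 (32840717 to 32844679), TAP1 (32845209 to 32853816) and PSMB9 (32844136 to 32859851) lie together in the class II region, and TAPBP lies further on (33299694 to 33314284). The annotated span of PSMB9 covers that of TAP1 and part of that of PSMB8. The first annotated RefSeq start site of TAP1 and that of PSMB9 are 488 bases apart and face away from each other. PSMB8 and PSMB9 share the role and the neighbourhood but not the start region.

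The start regions of some of the 9 genes are shown as a description, and whether what they hold bears on the changes in C4-2B was not tested. RefSeq windows of 300 bases, from 250 bases before the annotated start site to 50 bases after it (GRCh38.p14), were found for 8 of the 9 genes, which have 10 windows between them. The windows below are HLA-B (chr6:31357130-31357429, minus strand), B2M (chr15:44711267-44711566, plus strand), the first of 2 annotated starts of TAP1 (chr6:32853655-32853954, minus strand), PSMB9 (chr6:32853942-32854241, plus strand) and both annotated starts of PSMB8 (chr6:32844630-32844929 and chr6:32843998-32844297, minus strand). Each is written from 5′ to 3′ on the strand of its gene, and capitals mark every match on either strand to 1 of 6 motifs.
HLA-B: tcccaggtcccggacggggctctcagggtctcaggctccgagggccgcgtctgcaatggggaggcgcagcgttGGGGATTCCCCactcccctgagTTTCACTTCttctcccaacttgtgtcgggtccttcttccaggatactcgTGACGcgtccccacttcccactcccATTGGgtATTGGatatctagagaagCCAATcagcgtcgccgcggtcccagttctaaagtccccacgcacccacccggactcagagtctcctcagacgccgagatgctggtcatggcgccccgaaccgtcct
B2M: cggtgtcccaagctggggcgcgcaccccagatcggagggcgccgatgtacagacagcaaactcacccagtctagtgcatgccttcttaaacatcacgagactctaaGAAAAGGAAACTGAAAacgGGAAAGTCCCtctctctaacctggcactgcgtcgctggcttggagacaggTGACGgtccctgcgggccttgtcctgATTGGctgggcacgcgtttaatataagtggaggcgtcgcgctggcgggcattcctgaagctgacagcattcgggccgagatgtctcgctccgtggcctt
TAP1: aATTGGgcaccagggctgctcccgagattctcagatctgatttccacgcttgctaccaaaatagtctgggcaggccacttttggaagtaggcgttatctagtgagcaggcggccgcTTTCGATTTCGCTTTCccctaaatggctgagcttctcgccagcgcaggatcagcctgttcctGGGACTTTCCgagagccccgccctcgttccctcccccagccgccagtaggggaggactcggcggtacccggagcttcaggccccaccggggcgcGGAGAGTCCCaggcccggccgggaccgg
PSMB9: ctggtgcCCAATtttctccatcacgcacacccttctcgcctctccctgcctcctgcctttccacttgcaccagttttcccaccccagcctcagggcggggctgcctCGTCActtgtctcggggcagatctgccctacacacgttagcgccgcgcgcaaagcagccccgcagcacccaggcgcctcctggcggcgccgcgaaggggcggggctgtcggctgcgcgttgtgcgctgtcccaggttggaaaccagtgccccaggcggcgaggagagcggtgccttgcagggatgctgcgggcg
PSMB8 first start: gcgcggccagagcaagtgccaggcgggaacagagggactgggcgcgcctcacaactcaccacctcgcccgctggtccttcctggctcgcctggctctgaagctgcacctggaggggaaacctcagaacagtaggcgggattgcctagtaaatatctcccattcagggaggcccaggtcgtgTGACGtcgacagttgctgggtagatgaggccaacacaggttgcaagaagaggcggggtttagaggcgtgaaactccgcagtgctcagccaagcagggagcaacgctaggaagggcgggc
PSMB8 second start: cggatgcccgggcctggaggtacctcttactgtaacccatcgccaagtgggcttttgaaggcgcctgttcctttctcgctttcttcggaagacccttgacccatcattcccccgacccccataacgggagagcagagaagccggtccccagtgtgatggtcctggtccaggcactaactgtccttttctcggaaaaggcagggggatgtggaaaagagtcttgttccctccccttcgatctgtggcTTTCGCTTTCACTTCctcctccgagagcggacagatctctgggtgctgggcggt

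The motifs were the E-box bound by MYC family proteins (CACGTG), the core of the interferon-stimulated response element (GAAA, any 2 bases, GAAA), a shorter interferon element of class I genes (GAANNGAAA), the CCAAT box (CCAAT), a motif like that of NF-kB (GGGA, any base, T, any 2 bases, CC) and the core of the cyclic AMP response element (TGACG). Overlapping matches merge into 1 run of capitals. The E-box occurred in 0 of the 10 windows of the class I genes and in 7.23% of 34943 RefSeq windows of this length. The interferon-stimulated core occurred in 5 of the 10, in B2M, the first start of TAP1, TAP2, TAPBP and the second start of PSMB8, against 3.57% of all windows. The shorter interferon element occurred in 4 (HLA-B, HLA-C, TAP2 and the second start of PSMB8) against 7.66%. It was added after these promoters were seen, so the 2 shares cannot be weighed against each other. The NF-kB-like motif occurred in 4 (HLA-B, HLA-C, B2M and the first start of TAP1) against 5.13%. The CCAAT box was in 5 windows against 34.6% of all, and TGACG in 6 against 24.5%. The window of PSMB9 held neither interferon motif, and the first one of TAP1, on the other side of the same interval, held a pair of overlapping ones on the strand opposite to TAP1. The window of the second annotated start of TAP1 (chr6:32852712-32853011), which is not printed, held no match to any of the motifs. A match is a string of letters and says nothing of whether a factor was bound in these cells, and the absence of one says only that these letters are not in the window.

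**Figure D1:**
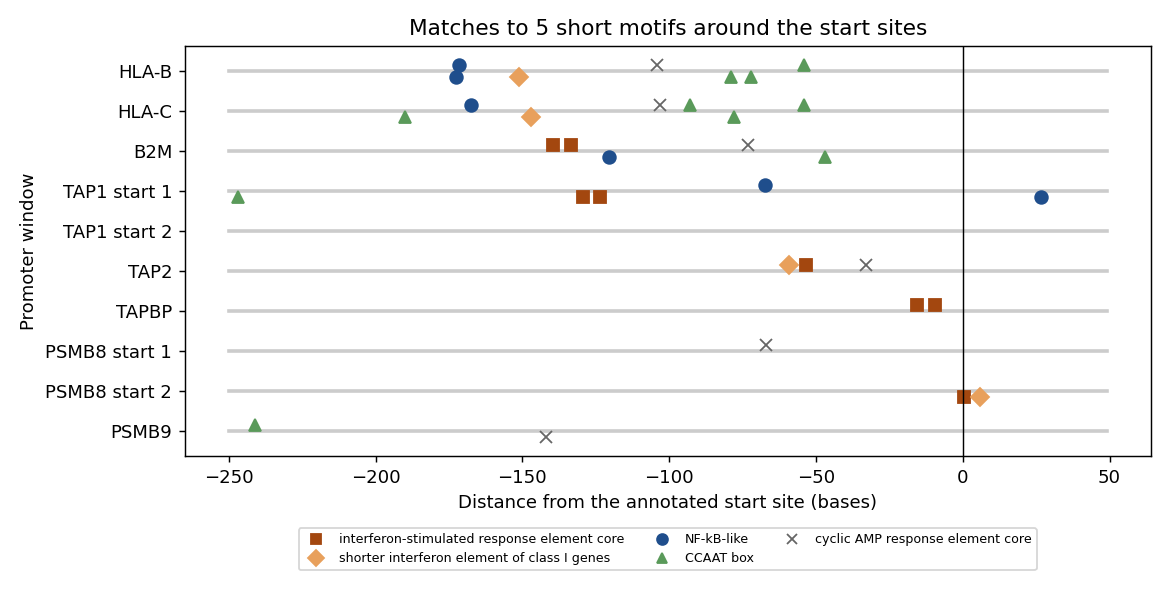
Position of motif matches in the 10 RefSeq windows of 8 class I pathway genes, by distance in bases from the annotated start site (0, the first transcribed base); symbols above a line match the strand of the gene and those below it the opposite strand. The interferon-stimulated core falls between 144 and 119 bases before the start in B2M and the first start of TAP1 and close to the start in TAP2, TAPBP and the second start of PSMB8.

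MYCL overexpression in C4-2B cells was accompanied by more RNA of TAP1, of HLA-B and of HLA-E. The immunoproteasome subunits PSMB8 and PSMB9 were also called higher, on few counts. Genes were called where the edgeR quasi-likelihood p, adjusted by Benjamini and Hochberg's method over the 16866 genes tested, lay under 0.05 and the change was 0.5 or more on the log2 scale in either direction. By this rule 5 of the 9 genes were called higher and 0 lower, where 11.8% of all genes were called higher, 8.12% lower and 19.9% in either direction. Higher calls made up 59.2% of all calls on counts and 33.5% by limma with log2(TPM + 1), a scale whose median over genes was -0.14. On the adjusted p alone 8 of the 9 passed as higher, where 17.6% of all genes did, but without C4-2B control replicate 1 B2M (0.0883), TAP2 (0.146), TAPBP (0.177) and PSMB8 (0.0764) did not pass in edgeR. PSMB8 and PSMB9 passed the filter on low counts only through the MYCL libraries, so they had to differ, and each lost its call in 2 fits that left out 1 library. The other 7 had at least 135 counts in every C4-2B library, and 3 of them were called. In all 9 both MYCL libraries lay above both control libraries, which held for 34% of all genes tested. The median log2 fold change of the 9 was 0.63, and that of all genes tested was -0.00. A list of 9 fibroblast and endothelial markers summed to between 18.7 and 20 CPM in control and to between 28.8 and 29.1 CPM in MYCL libraries, with COL1A2, DCN, LUM and KDR at 0 in both groups, and its part in these differences was not tested. In bulk RNA, a change in the number of cells that express a gene and a change in RNA per cell cannot be told apart.

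Among the heavy chains, HLA-B measured 7.12 and 6 CPM in the control libraries and 12.8 and 14.6 CPM in the MYCL libraries. The 2 groups were separated by more than their own spread, and the fold change was 2.08 (log2 1.06 ± 0.16, SE; edgeR adjusted p = 0.00125, n = 2 per group). HLA-E measured 27 and 26.5 CPM in control and 40.6 and 42 CPM in MYCL libraries. Its replicates lay close together in both groups, and the fold change was 1.55 (log2 0.63 ± 0.09; edgeR adjusted p = 0.000712). HLA-C measured 32.6 and 27.5 CPM in control and 34.7 and 41.2 CPM in MYCL libraries. The groups of HLA-C did not overlap, but the log2 difference of 0.34 ± 0.12 (95% interval 0.07 to 0.60) did not pass (edgeR adjusted p = 0.0507). Of 2 further class I loci tested, both named after their values were seen, the heavy chain gene HLA-F was not called (0.85; edgeR adjusted p = 0.0982), and HLA-L, a pseudogene, was called higher at 1.07 and 0.888 CPM against 3.47 and 2.84 CPM. Class I heavy chains share sequence with one another and with pseudogenes, so reads can be divided between them. Of the 50-base words of HLA-B transcripts, 30.5% also occur in transcripts of other genes, against 5.46% for HLA-C and 5.19% for HLA-E. GENCODE exons of other genes also cover 32.7% of the exon bases of HLA-B on the same strand and 14.8% on the opposite one, and 0% for HLA-C and HLA-E.

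B2M, the common light chain, was the most abundant of the 9 genes per length in every group. It measured 173.3 and 191.2 CPM in control and 235.5 and 237.8 CPM in MYCL libraries of C4-2B. The groups did not overlap, and the fold change was 1.3 (log2 0.38 ± 0.08). It passed on the adjusted p (edgeR, 0.00441) and lay under the minimum on the fold change, so B2M was not called. B2M transcripts share 0% of their 50-base words with other genes.

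The transporter subunits differed in how far they moved. TAP1 measured 7.51 and 7.42 CPM in control and 17.4 and 19.3 CPM in MYCL libraries, a fold change of 2.47 (log2 1.30 ± 0.13; edgeR adjusted p = 0.000168). The 2 control libraries were nearly alike, and both MYCL libraries lay far above them. TAP2, which forms the transporter together with TAP1, measured 25.5 and 27.1 CPM in control and 31.5 and 35.1 CPM in MYCL libraries. Its log2 difference of 0.35 ± 0.10 passed on the adjusted p (edgeR, 0.0216) and not on its size, and so did that of TAPBP (0.47 ± 0.13; edgeR adjusted p = 0.0209), with 15.1 and 19.1 CPM in control and 22.7 and 24.2 CPM in MYCL libraries. Per length, control cells held 3.41 ± 0.0191 TPM of TAP1 and 9.54 ± 0.74 TPM of TAP2 (SD, n = 2), and MYCL cells 7.63 ± 0.167 and 10.6 ± 0.279 TPM, so the 2 subunits lay closer together with MYCL. Exons of the antisense gene PSMB8-AS1 cover 14.2% of the exon bases of TAP1, and those of another gene on the same strand cover 19.5% of the exon bases of TAP2. Exons of PSMB8-AS1 and PSMB9 cover 17.3% of the exon bases of PSMB8 on the opposite strand. Of the exon bases of PSMB9, exons of PSMB8 and PSMB8-AS1 cover 5.21% on the same strand and 4.16% on the opposite one. How the counting treated strand is not given in the sources used here, so reads of TAP1, PSMB8 or PSMB9 in these shared bases and those of the overlapping genes cannot be told apart.

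The immunoproteasome subunits had the highest fold changes of the 9 genes and by far the fewest counts. PSMB8 was counted 4 times in each control library and 25 and 12 times with MYCL, or 0.13 and 0.178 CPM against 1.42 and 0.725 CPM. The 2 MYCL libraries differed from each other, and both lay above both controls. PSMB9 was counted 3 times and 0 times in control and 11 and 12 times with MYCL, or 0.0975 and 0 CPM against 0.627 and 0.725 CPM. The fitted log2 fold change was 2.79 ± 0.65 for PSMB8 (edgeR adjusted p = 0.01) and 3.49 ± 0.91 for PSMB9 (edgeR adjusted p = 0.0165), the latter dependent on the prior count because the control is nearly empty. Summed over libraries and scaled by library size, the ratio of MYCL to control was 7.25 for PSMB8 (95% interval 3.32 to 18, counting error only) and 12 for PSMB9 (3.63 to 62.6). Leaving out C4-2B control replicate 1 ended the call of PSMB8 (edgeR adjusted p = 0.0764), as did leaving out C4-2B MYCL replicate 1 (0.14). That of PSMB9 ended on leaving out C4-2B control replicate 2 (edgeR adjusted p = 0.136) or C4-2B MYCL replicate 1 (0.0514). PSMB8 was called in the other 2 fits, and PSMB9 in 1, without control replicate 1, where the remaining control holds 0 counts. The fitted value for PSMB9 ran from 2.72 without C4-2B control replicate 2 to 6.68 without C4-2B control replicate 1. Without C4-2B MYCL replicate 2, PSMB9 did not pass the filter on low counts.

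**Figure D2:**
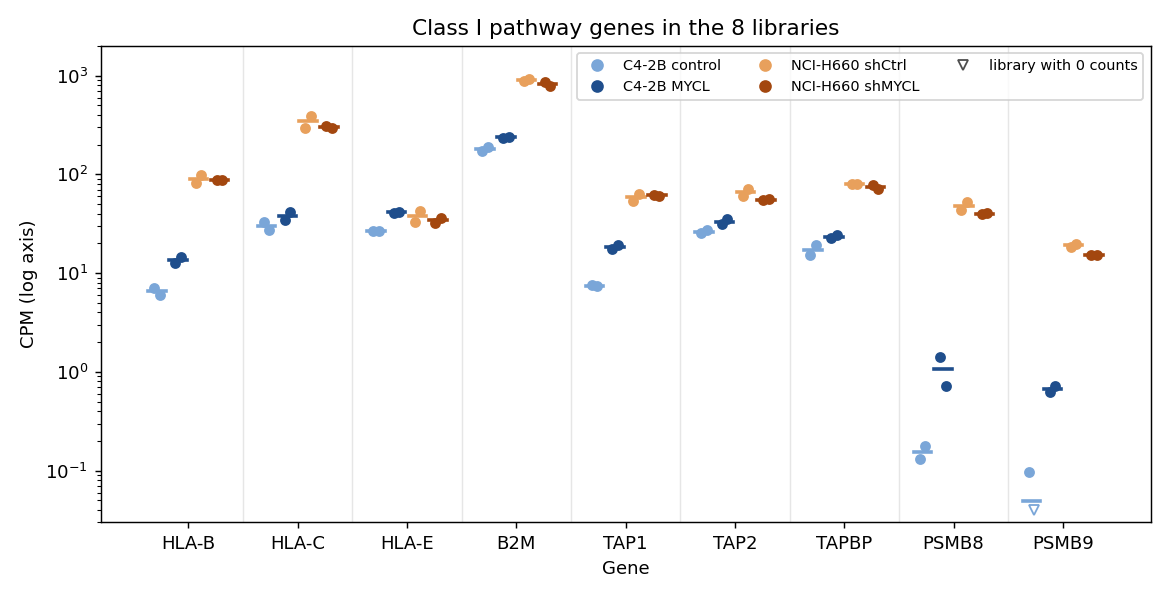
CPM of the 9 class I pathway genes in each of the 8 libraries on a log axis, with 1 point per library, a line at the mean of each group and an open triangle for the library with 0 counts. In C4-2B both MYCL libraries lie above both controls for all 9 genes, and NCI-H660 libraries lie above all C4-2B libraries for every gene but HLA-E.

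MYCL knockdown in NCI-H660 cells, in which MYCL RNA fell by 3.06 on the log2 scale, left 0 of the 9 genes called by edgeR in either direction and 0 by DESeq2, where 16.2% of 16980 genes were called (7.18% higher and 8.99% lower). At an unadjusted p under 0.05 there were 3 of the 9, TAP2, PSMB8 and PSMB9. Fitted values were below 0 for 8 genes and above 0 for TAP1, where 49.6% of all genes were above 0, with a median of -0.14 against -0.00 for all genes tested. All 95% intervals together ran from -0.62 to 0.31, so changes the size of those of the 5 genes called in C4-2B lie outside them, and 6 of the 9 intervals include 0. The MYCL change in C4-2B was far larger, at 8.26 on the log2 scale.

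Among the heavy chains, HLA-B measured 82 and 98.7 CPM with shCtrl and 87 and 87.1 CPM with shMYCL, and HLA-C 297.2 and 392.3 CPM against 306.6 and 295.6 CPM. HLA-E measured 33.2 and 42.6 CPM with shCtrl and 32.4 and 36.5 CPM with shMYCL. The groups overlapped for all 3 heavy chains, and the log2 differences were -0.06 ± 0.11, -0.20 ± 0.12 and -0.14 ± 0.14 (SE; edgeR adjusted p between 0.264 and 0.752). B2M measured 883.0 and 923.3 CPM with shCtrl and 861.0 and 792.8 CPM with shMYCL, a log2 difference of -0.13 ± 0.10 (edgeR adjusted p = 0.394). TAP1 measured 53.2 and 63.7 CPM against 61.9 and 60.8 CPM, and its groups overlapped. TAP2, TAPBP, PSMB8 and PSMB9 had both shMYCL libraries below both shCtrl libraries, as did B2M, which makes 5 of the 9, where 31.8% of all genes tested had that order.

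PSMB9 came nearest to the threshold, with 18.4 and 19.8 CPM in shCtrl and 15.3 and 15.1 CPM in shMYCL libraries. Its log2 difference was -0.33 ± 0.14 (95% interval -0.62 to -0.04; edgeR adjusted p = 0.0911). PSMB8 measured 43.7 and 52.6 CPM against 39.7 and 40.5 CPM, a log2 difference of -0.27 ± 0.12 (edgeR adjusted p = 0.121). TAP2 measured 60.3 and 71.7 CPM against 54.6 and 56.3 CPM (-0.26 ± 0.12; edgeR adjusted p = 0.119). The 2 shCtrl libraries were not alike for these genes. NCI-H660 shCtrl replicate 2 was above replicate 1 for 9 of the 9 genes, by a median of 0.26 on the log2 scale, where 47.7% of all genes were higher in replicate 2. Without shCtrl replicate 1, 3 genes passed on the adjusted p at values under the minimum fold change (HLA-C -0.38, edgeR adjusted p = 0.0137; TAP2 -0.37, 0.0154; PSMB8 -0.39, 0.015) and the value for TAP1 was -0.05. Without shCtrl replicate 2, the values for HLA-B, HLA-C and HLA-E were 0.09, 0.02 and 0.05.

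**Figure D3:**
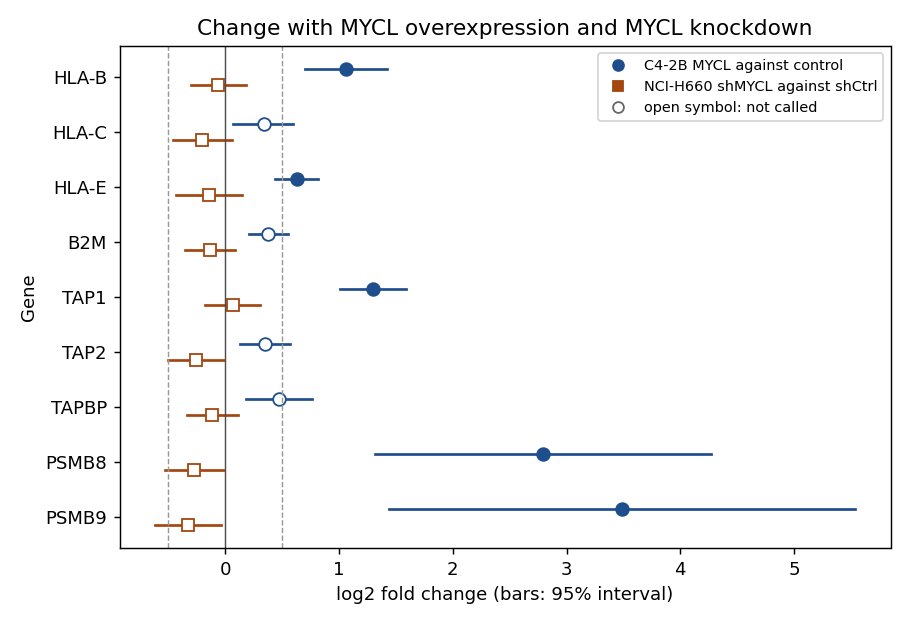
Log2 fold change of the 9 genes with MYCL overexpression in C4-2B (circles) and with MYCL knockdown in NCI-H660 (squares), each with its 95% interval from edgeR, with dashed lines at the minimum of 0.5 in each direction; filled symbols were called. Values for C4-2B run from 0.34 for HLA-C to 3.49 for PSMB9, and those for NCI-H660 from -0.33 for PSMB9 to 0.07 for TAP1.

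Whether high against low MYCL had a different effect in the 2 lines was tested as an interaction, which sets C4-2B MYCL against control beside NCI-H660 shCtrl against shMYCL. MYCL itself changed by 8.26 on the log2 scale in C4-2B and by -3.06 in NCI-H660, so the size of its change cannot be told apart from the line. The effect was larger in C4-2B for 4 of the 9 genes, where 9.59% of 19605 genes were called in that direction, 8.33% in the other and 17.9% in either. The log2 difference of effects was 3.12 ± 0.66 for PSMB9 (edgeR adjusted p = 0.00532) and 2.53 ± 0.51 for PSMB8 (0.00425). For TAP1 it was 1.37 ± 0.17 (edgeR adjusted p = 0.000166) and for HLA-B 0.99 ± 0.18 (0.00218). All 4 were called in each of the 8 fits that left out 1 library, but with limma on log2(TPM + 1), a scale that flattens low values, PSMB8 (0.64; adjusted p = 0.131) and PSMB9 (0.50; 0.0613) were not. The value of PSMB9 ran from 2.39 without C4-2B control replicate 2 to 6.29 without C4-2B control replicate 1, where the remaining control holds 0 counts. HLA-E came close, with 0.49 ± 0.17 (edgeR adjusted p = 0.0664). For HLA-C (0.14, 95% interval -0.27 to 0.54), B2M (0.25, -0.01 to 0.51), TAP2 (0.09, -0.24 to 0.42) and TAPBP (0.35, -0.00 to 0.70) the intervals include 0. This test uses the same libraries as the comparisons within each line and is no separate evidence.

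Before any change of MYCL, the neuroendocrine line held more RNA of the 9 genes than the adenocarcinoma line, 2.51-fold or more for 8 of them and 1.42-fold for HLA-E. In NCI-H660 shCtrl against C4-2B control, 9 of the 9 genes were called higher, where 36.5% of 19605 genes were called higher, 33.3% lower and 69.8% in either direction. PSMB8 and PSMB9, nearly absent from C4-2B control, passed the filter on low counts only through other groups, so they had to differ. The median log2 difference of the 9 was 2.97, and that of all genes tested was 0.03. The lines differ in lineage, in MYCL and in the vectors they carry, and these cannot be told apart here. The luminal and neuroendocrine marker sums given above move with this comparison, and so does the share of counts from mitochondrial genes, from 9.63% to 10.7% for C4-2B libraries and 3.5% to 3.83% for those of NCI-H660. The fibroblast and endothelial markers summed to between 18.7 and 20 CPM in C4-2B control and 115.3 and 118.7 CPM in NCI-H660 shCtrl (72.1 to 80 in shMYCL). Of 6 of them tested, 4 were called higher in NCI-H660 shCtrl and 2 lower. The part of these differences in it was not tested.

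The step was smallest for HLA-E and largest for the immunoproteasome. HLA-E stood 1.42-fold higher in NCI-H660 (log2 0.51 ± 0.12; edgeR adjusted p = 0.00192), just over the minimum. It was called in 4 of the 8 fits that left out 1 library, and without shCtrl replicate 2 the value was 0.32. HLA-B stood 13.7-fold higher (log2 3.77 ± 0.13) and HLA-C 11.4-fold higher (3.52 ± 0.14). B2M was 4.96-fold (2.31 ± 0.09), TAP1 7.82-fold (2.97 ± 0.12), TAPBP 4.73-fold (2.24 ± 0.12) and TAP2 2.51-fold higher (1.33 ± 0.11), all at edgeR adjusted p of 8.28e-08 or below. PSMB8 counted 1811 in the shCtrl libraries together and 8 in the controls, a ratio of 322.0 after scaling (95% interval 163.1 to 746.9, counting error only). PSMB9 counted 717 against 3, a ratio of 339.9 (115.9 to 1652).

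In CPM, for 8 of the 9 genes every C4-2B library lay below every NCI-H660 library, and C4-2B MYCL lay between C4-2B control and both NCI-H660 groups. The distance left was wide. In a fit of all 4 groups, NCI-H660 shCtrl exceeded C4-2B MYCL by 5.47 ± 0.21 on the log2 scale for PSMB8, by 4.81 ± 0.28 for PSMB9, by 2.73 ± 0.13 for HLA-B and by 1.67 ± 0.12 for TAP1 (edgeR adjusted p of 1.49e-08 or below). HLA-E was the exception on this scale. C4-2B MYCL had its highest mean, NCI-H660 shCtrl lay 0.12 ± 0.12 below it (edgeR adjusted p = 0.38) and NCI-H660 shMYCL 0.26 ± 0.12 below it (0.0702), so neither difference passed the test, and C4-2B control lay below all of them. In TPM the order of HLA-E was reversed, and all NCI-H660 libraries lay above all C4-2B libraries. It measured 20.2 and 21 TPM in C4-2B MYCL, 27.1 and 33.4 in NCI-H660 shCtrl and 25.8 and 29.7 in NCI-H660 shMYCL. Between the 2 NCI-H660 groups 0 of the 9 differences were called, although the libraries of 5 genes did not overlap.

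Per length, B2M and HLA-C were the most abundant of the 9 in all 4 groups, and the order below them differed between the lines. In C4-2B control HLA-E was next at 13.7 TPM, then TAP2 at 9.54 and HLA-B at 7.42, with PSMB8 at 0.191 and PSMB9 at 0.0728 last. In NCI-H660 shCtrl HLA-B came next at 154.1 TPM, then PSMB8 at 89.6 and TAPBP at 54.1, while TAP2 at 30.9 and HLA-E at 30.2 came last. TPM values in NCI-H660 are also raised as a whole, since the median of all genes differed between the control groups by 0.52 on the log2(TPM + 1) scale. HLA-C alone stood at 26.4 ± 2.95 TPM in C4-2B control, 30.3 ± 2.05 in C4-2B MYCL, 460.5 ± 70.3 in NCI-H660 shCtrl and 404.7 ± 12.4 in NCI-H660 shMYCL (SD, n = 2).

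The balance between immunoproteasome subunits and the constitutive subunits they replace can be read within a library. PSMB8 replaces PSMB5, PSMB9 replaces PSMB6 and PSMB10 replaces PSMB7. PSMB8 made up 0.108% and 0.101% of the summed TPM of PSMB8 and PSMB5 in C4-2B control, 1.21% and 0.565% in C4-2B MYCL, 27.6% and 29.9% in NCI-H660 shCtrl and 23.6% and 25.6% in NCI-H660 shMYCL. PSMB9 made up 0.0737% and 0% of the sum with PSMB6 in C4-2B control, 0.549% and 0.529% in C4-2B MYCL, 11.4% and 11.9% in NCI-H660 shCtrl and 9.04% and 9.78% in NCI-H660 shMYCL. Both shares lay higher in the MYCL libraries than in the controls of C4-2B, and lower in the shMYCL than in the shCtrl libraries. With 2 libraries against 2, the smallest p an exact permutation test can give is 0.33, so these shares are described only. PSMB10, the remaining immunosubunit, had the opposite order of lines, with a mean share of 4.56% in C4-2B control and 5.72% in C4-2B MYCL against 2.95% and 2.63% in NCI-H660. Its RNA did not pass in either line (log2 0.23 ± 0.17 in C4-2B, edgeR adjusted p = 0.322). The constitutive subunits PSMB5, PSMB6 and PSMB7 had log2 differences of -0.26, -0.11 and -0.14 in C4-2B, and 0 of the 3 were called in any comparison. Transcript shares say nothing of assembled particles.

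**Figure D4:**
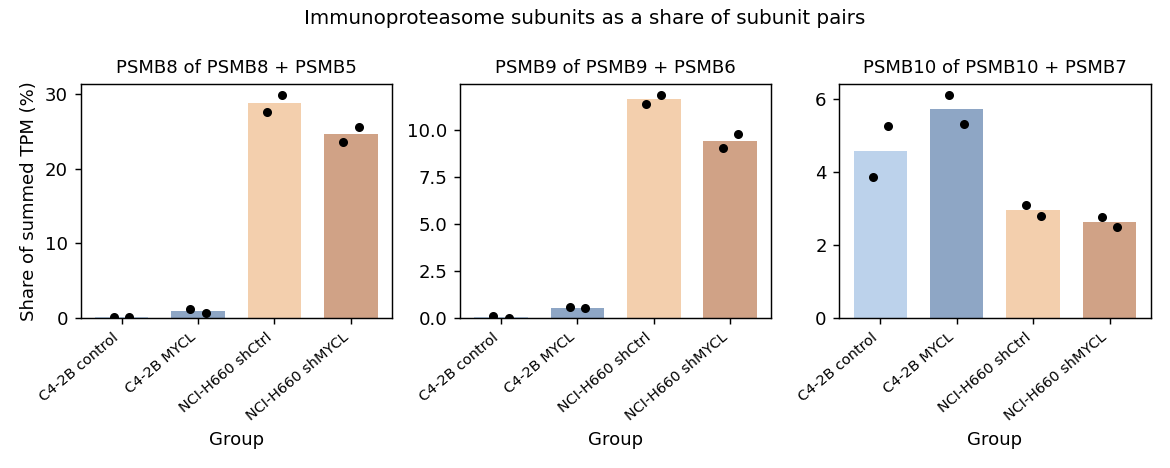
Share of each immunoproteasome subunit in the summed TPM of that subunit and its constitutive counterpart, in percent, with bars at the mean of each group and 1 point per library (the 3 panels have different axes). PSMB8 and PSMB9 are at or under 1.21% in all C4-2B libraries and at 9.04% or more in all NCI-H660 libraries, whereas PSMB10 is higher in C4-2B.

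The rest of the pathway was described from lists of genes by role. Of 18 genes for peptide loading and trimming, 1 was called higher in C4-2B MYCL and 0 lower (median 0.03), the endoplasmic reticulum metallopeptidase ERMP1 at 0.52 ± 0.09. The chaperones of the loading complex did not join TAP1. CALR had a log2 difference of 0.27 ± 0.11, CANX of -0.10 ± 0.08 and PDIA3 of 0.07 ± 0.09, none of them called, and the trimming peptidases ERAP1 and ERAP2 were not called either (0.31 ± 0.12 and -0.06 ± 0.37). Of 6 further genes of the immunoproteasome and its PA28 activator, PSME1, a PA28 subunit, was called higher (log2 0.70 ± 0.08, 42.7 and 46.7 CPM against 72.3 and 71.9 CPM). PSME3, of the nuclear PA28 form, was called lower (-0.60 ± 0.08), and PSME2, the partner of PSME1, was not called (0.17 ± 0.10). The loading and trimming list lay under the 11.8% of all genes called higher and the 8.12% called lower, and the list of 6 is too short to set against them.

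Of 32 tested genes of the class I transcription list, 3 were called higher and 3 lower in C4-2B MYCL (median -0.02). Of all genes, 11.8% and 8.12% were, so the calls were about as frequent as over all genes. Most of the list acts on transcription, but SUSD6, TMEM127, WWP2, MARCHF9 and STUB1 act on proteins, and none of these was called. NLRC5, the class I coactivator, measured 1.14 and 1.73 CPM in control and 3.02 and 3.74 CPM in MYCL libraries (log2 1.25 ± 0.34; edgeR adjusted p = 0.0205). IRF1, an interferon regulatory factor that binds several class I promoters, measured 2.18 and 2.98 CPM against 7.06 and 6.94 CPM (1.46 ± 0.25; edgeR adjusted p = 0.00228). The other, RELB of the NF-kB family, stood at 0.618 and 0.755 CPM against 1.88 and 2.11 CPM (1.55 ± 0.41), and as a gene of low level was named after its values were seen. Lower were the corepressor TRIM28 (-0.63), the NF-kB gene NFKB1 (-0.62) and the Polycomb gene BMI1 (-0.57). RFX5, which binds the X box of class I promoters, had a log2 difference of -0.01 ± 0.08 and was not called.

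The next lists stand against the same 11.8% of all genes called higher and 8.12% lower. Of 20 tested interferon receptors and signalling genes, 3 were called higher (IRF9 1.08, STING1 0.80 and IFNGR1 0.55) and 0 lower. Of 33 tested interferon-stimulated genes outside the class I pathway, 12 were called higher and 1 lower, with a median of 0.61. IFITM1 (1.61 ± 0.18), IFI35 (1.56 ± 0.26) and IFI6 (1.41 ± 0.16) led those with a log2 CPM of at least 1, and HERC6 (-0.88 ± 0.12) was the one called lower. IFNG and IFNB1, the genes of interferon gamma and beta, had 0 counts in all 8 libraries, which allows up to 3 counts in each. Among 12 tested class I-like molecules, which have a class I fold and other partners, 6 were called higher and 0 lower (median 1.07). MR1, which shows microbial metabolites to T cells, measured 1.53 and 2 CPM against 4.56 and 3.99 CPM (1.29 ± 0.29). PROCR, the endothelial protein C receptor, had a log2 difference of 1.16 ± 0.18, and ULBP1, a ligand of the activating receptor NKG2D, one of 1.11 ± 0.19. Of low level among the called genes were GBP2 and IFI27 (interferon-stimulated) and FCGRT and RAET1L (class I-like), named after their values were seen. Their mean log2 CPM lay between -0.72 and -0.21, and their fold changes were 5.57 or more. They passed the filter on low counts only through the MYCL libraries and had to differ, and the list counts and medians rest partly on them.

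**Figure D5:**
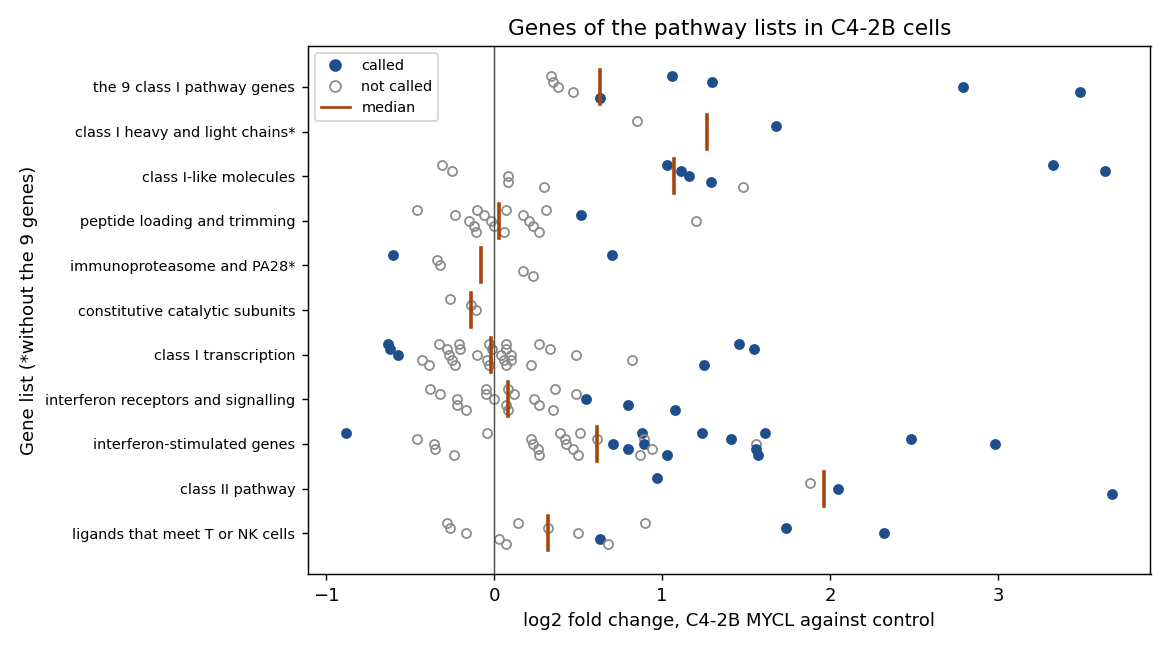
Log2 fold change of each tested gene in C4-2B MYCL against control, by list, with called genes filled, other genes open and the median of each list as a vertical line. Called genes lie mostly to the right in the class I-like and interferon-stimulated lists, and the loading and trimming list centres on 0.03 with 1 called gene.

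In NCI-H660 the same lists are read against 7.18% of all genes called higher and 8.99% lower after MYCL knockdown. Of 18 loading and trimming genes, THOP1, a cytosolic peptidase, was called higher (0.59 ± 0.12) and LNPEP, an endosomal aminopeptidase, lower (-1.03 ± 0.14). CALR passed on the adjusted p and not on its size (-0.36 ± 0.11; edgeR adjusted p = 0.0261), and so did PSME1 (-0.38 ± 0.10; 0.0136). Of 33 genes of the class I transcription list, NFKB1 (0.59) and ATF1 (0.57) were called higher and RFXAP (-0.64) lower. NLRC5 measured 7.16 and 8.42 CPM with shCtrl and 12.2 and 9.81 CPM with shMYCL (0.49 ± 0.19; edgeR adjusted p = 0.0664), and IRF1 29 and 26.6 CPM against 24.8 and 25.1 CPM (-0.16 ± 0.12). Of 23 interferon receptors and signalling genes, the RNA sensor RIGI was called lower (-0.53 ± 0.13). Of 32 interferon-stimulated genes, 3 were called higher (GBP2, SP100 and GBP1) and 2 lower (GBP4 and IFIT3), with a median of -0.03. Of 8 class I-like molecules, 1 was called higher, ULBP1 (0.54 ± 0.16), and 1 lower. The lower one was FCGRT, a receptor for immunoglobulin G that pairs with B2M, at 5.71 and 8.02 CPM against 3.06 and 2 CPM (-1.45 ± 0.29). These calls are from edgeR. DESeq2 called 2 of the interferon-stimulated genes higher and 0 lower. It called 0 class I-like molecules higher and 1 lower, and 2 genes of the class I transcription list higher and 0 lower.

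The effect of high against low MYCL differed between the lines for NLRC5 (1.75 ± 0.37; edgeR adjusted p = 0.00545) and for IRF1 (1.31 ± 0.22; 0.00138), as it did for HLA-B, TAP1, PSMB8 and PSMB9. Over all 33 genes of the class I transcription list, 4 were called higher and 2 lower in this interaction (median 0.04). Of all genes tested, 9.59% were called higher and 8.33% lower. Between the control groups of the lines, IRF1 stood 10.9-fold and NLRC5 5.5-fold higher in NCI-H660, where 36.5% of all genes were called higher and 33.3% lower. PSMB5, PSMB6 and PSMB7 were not called. Of the 18 loading and trimming genes, 4 were called higher and 10 lower in NCI-H660 (median -0.65). CALR was lower there (-0.77 ± 0.12), PDIA3 also (-0.56 ± 0.09) and TAPBPL, a tapasin relative, higher (4.47 ± 0.31). For class I-like molecules the counts were 3 higher and 6 lower of 13. MICB was higher at 47.6 and 56.4 CPM against 0.39 and 0.0888 CPM. MICA, its near relative, was lower at 1.18 and 1.63 CPM against 16.4 and 17.5 CPM, and both are ligands of NKG2D. MICB passed the filter on low counts only through NCI-H660, and HFE, AZGP1 and RAET1E, all called lower, only through C4-2B. These genes had to differ in that direction, and the counts rest partly on them. The median of the loading and trimming genes and that of the 9 class I genes, 2.97, had opposite signs.

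The genes whose pattern over the 8 libraries was most like the mean of the 9 were sought among 10110 genes with a log2 CPM of at least 3. NINL, PARP10 and NFIL3 each had a Pearson correlation of 0.9986, P4HTM one of 0.9976 and PLPP2 one of 0.9975 (n = 8 libraries). The libraries fall into 2 cell lines that differ in most genes, and 971 of the 10110 genes had a correlation over 0.95, so these values describe a step between lines.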

How the data were processed

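RNA was sequenced from 8 libraries of 2 cell lines. The authors deposited estimated counts per gene, of which 34.4% of non-zero values were not whole, and a table of TPM for 65535 genes. The submitters' processing notes name hg38, and the aligner and counter are not given in the sources used here. Estimated counts were rounded, genes were filtered with filterByExpr, and edgeR 4.0.16 (R 4.3.3) with TMM scaling was fitted to the libraries of each line for the comparisons within lines and to all 8 for the others. Library totals ranged from 15177071 to 32344170 counts. The threshold was 0.05 for the Benjamini-Hochberg adjusted p, with a minimum change of 0.5 on the log2 scale. The 95% intervals of ratios are exact and cover counting error only. Alternatives were DESeq2 1.42.0, other scalings and filters, a replicate block, limma 3.58.1 on log2(TPM + 1) and log2(TPM + 0.1), and leaving out each library. The 9 genes, the other lists and the rule for naming list genes (called, log2 CPM of at least 1, the 3 largest changes in each direction, 15 genes of known role whatever their values, of which 1 is not reported here, MYCL, and the 5 genes of most similar pattern) were chosen with earlier results of these data known, and the shorter interferon motif was added after the promoters were seen. The fits were tested on simulated data first. Python 3.11.15, pandas 2.3.3 and matplotlib 3.10.9 made the summaries and plots.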

Additional observations from a re-analysis of the deposited data

Results flagged for a closer look

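For 4 genes the effect of high against low MYCL differed between C4-2B and NCI-H660 by the interaction test in edgeR (Benjamini-Hochberg adjusted over 19605 genes, of which 17.9% were called). The log2 difference, C4-2B minus NCI-H660, was 0.99 for HLA-B, 1.37 for TAP1, 2.53 for PSMB8 and 3.12 for PSMB9. In C4-2B both MYCL libraries of each of the 4 lay above both controls. In NCI-H660 the shCtrl and shMYCL libraries of HLA-B and TAP1 overlapped, and those of PSMB8 and PSMB9 did not, with shMYCL lower. The values of PSMB8 and PSMB9 rest on 8 and 3 counts in the C4-2B controls. The vectors and the direction and size of the MYCL change (log2 8.26 in C4-2B and -3.06 in NCI-H660) differ between the lines and cannot be told apart from the line.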

How the results depend on the processing

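With 2 libraries a group, and 8 to 37 counts of PSMB8 and 3 to 23 of PSMB9 over both C4-2B libraries of a group, the values of these genes in C4-2B are the least certain. Of the 9 genes, 5 were called in C4-2B. With at least 10 counts in every library there were 3, with limma on log2(TPM + 1) 3, on log2(TPM + 0.1) 3 and on centred log2(TPM + 1) 3, where the filters left PSMB8 and PSMB9 out, without the fold minimum 8, and leaving out 1 library 4 to 5. The genes differed, since TAPBP was called in 2 of these 4 fits (0.64 without control replicate 2 and 0.52 without MYCL replicate 1), and without MYCL replicate 1 neither PSMB8 nor PSMB9 was. The interaction called 4, and 2 with limma on log2(TPM + 1), filtered or not (4 to 5 leaving out 1 library). In NCI-H660 0 were called in every setting run, and between the lines 9 (8 to 9 leaving out 1 library). Over all genes, the calls in C4-2B went from 3355 to 1940 with unfiltered TPM, 5895 without the fold minimum and 1411 with a minimum of 1. Those in NCI-H660 went from 2745 to 1702 and 1600 with log2(TPM + 1) and log2(TPM + 0.1), 1 with unfiltered and 1692 with centred TPM, 4204 without the minimum and 1022 with a minimum of 1. The interaction went from 3513 to 1898 with unfiltered TPM and 1666 with a minimum of 1, and the lines from 13687 to 8512 with at least 10 counts in every library. Values that changed sign were not called before or after. Leaving out 1 library, the values in NCI-H660 ran from -0.18 to 0.09 for HLA-B, -0.38 to 0.02 for HLA-C and -0.31 to 0.05 for HLA-E, above 0 without shCtrl replicate 2, and from -0.05 to 0.21 for TAP1, below 0 without shCtrl replicate 1. In the interaction they ran from -0.06 to 0.34 for HLA-C and from -0.04 to 0.21 for TAP2, below 0 without shCtrl replicate 1, and TAP2 stood at -0.11 (log2(TPM + 1)), -0.10 (log2(TPM + 0.1)), -0.11 (unfiltered) and -0.01 (centred). The cause was not tested. TPM moved the median of all genes by -0.14 in C4-2B and 0.52 between the lines, and the share of higher calls in C4-2B from 59.2% to 33.5% (60.7% after centring), in the interaction from 53.5% to 35.7%, and between the lines from 52.2% to 71.1% (40.8% after centring). The same replicate numbers did not pair the libraries (correlation of deviations 0.0328 and 0.0457), and with the replicate block 5, 0, 4 and 8 of the 9 genes were called and 3536, 2949, 3576 and 13579 of all genes. HLA-E fell just under the minimum between the lines, at 0.50.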

Other observations

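The MHC class II pathway, which shows peptides from outside the cell and is normally kept to professional antigen presenting cells, had 7 of 8 tested genes higher and 1 lower in NCI-H660 shCtrl than in C4-2B control, where 36.5% of all genes were called higher and 33.3% lower. CD74, CTSS, HLA-DPB1 and HLA-DMB passed the filter on low counts only through NCI-H660, and HLA-DQB1, the lower one, only through C4-2B. These genes had to differ in that direction, so the counts are largely set by the filter. CD74, the invariant chain, measured 0 and 0 CPM in C4-2B control, 0.171 and 0.362 in C4-2B MYCL, 42.5 and 44.3 in NCI-H660 shCtrl and 38.6 and 40.9 in NCI-H660 shMYCL. The protease CTSS, which trims the invariant chain, measured 0.0325 and 0.0888 CPM in C4-2B control, 0.513 and 0.302 in C4-2B MYCL and 158.7 and 160.8 in NCI-H660 shCtrl, and was called lower with shMYCL at 62.5 and 70.7 CPM (log2 -1.26). Of 4 class II genes tested in C4-2B, 3 were called higher with MYCL by edgeR and 2 by DESeq2. HLA-DMA, a peptide editor, was at 4.29 and 4.8 CPM in control and at 8.6 and 9.12 CPM in MYCL libraries (log2 0.97). The other called genes, IFI30 and HLA-DQB1, were of low level, are named after their values were seen and passed the low-count filter only through the MYCL libraries, IFI30 with 0.358 and 0 CPM in control and 2.34 and 2.84 CPM in MYCL libraries.

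Among 13 tested ligands that meet T or natural killer cells, 3 were called higher in C4-2B MYCL and 0 lower, against 11.8% and 8.12% of all genes. CD55, which shields cells from complement, measured 2.8 and 2.31 CPM in control and 10.1 and 15.6 CPM in MYCL libraries (log2 2.32), and the adhesion ligand ICAM1 had a log2 difference of 0.63, while LGALS9, of low level, was named after its values were seen. Its mean log2 CPM was -0.63, so LGALS9 too may have passed the filter on low counts only through the MYCL libraries. CD274, the gene of PD-L1, measured 0.52 and 0.888 CPM in C4-2B control, 1.25 and 0.966 in C4-2B MYCL, 4.31 and 5.36 in NCI-H660 shCtrl and 5.49 and 7.15 in NCI-H660 shMYCL. In NCI-H660 1 of 13 ligands was called higher with shMYCL, the complement regulator CD46 (log2 0.52), and 1 lower, VTCN1, which was of low level and named after its values were seen, against 7.18% and 8.99% of all genes. VTCN1 had a mean log2 CPM of 0.45 and a fold change of 0.197. It may have passed the filter on low counts only through the shCtrl libraries.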
